A study of Mus musculus with 6 samples.

Results

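The mitosis and G2/M genes are 40 mouse genes taken by name from a list of mitotic kinases, cyclins, spindle motors, centromere proteins and checkpoint proteins. All 40 were found among the 56953 gene IDs of the count tables, and all 40 passed the filter on low counts with which 15591 genes were tested. They were measured in natural killer (NK) cells, cytotoxic lymphocytes of the innate immune system, taken from the spleen of wild-type C57BL/6 mice and grown for 7 days with recombinant human interleukin-2 at 1700 U/ml. The cells were kept at 1% oxygen (hypoxia, 3 libraries) or at 20% oxygen (normoxia, 3 libraries), and the comparison asks how low oxygen changes gene expression in these cells. The libraries are labelled as biological replicates. Whether each stands for its own mouse, pool of mice or culture is not given in the sources used here, nor is how the NK cells were purified. A p-value sets the difference between the groups against the spread of these libraries within their group. What variation that spread covers is not known.

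A cell that has copied its DNA enters mitosis when cyclin B and the kinase CDK1 are switched on by CDC25 phosphatases. The chromosomes condense, spindle microtubules attach to them at kinetochores, and a checkpoint holds the cell until every chromosome is attached. The ubiquitin ligase APC/C then destroys cyclin B, and the cell divides. The mRNAs of this machinery are made mainly in the G2 and M phases, so in a mixed culture they are widely used as a readout of proliferation. Interleukin-2 drives NK cells to divide in culture.

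Each library held 55104810 to 55794698 estimated counts. Levels are CPM, counts scaled to the library total with TMM, a factor that corrects for a few abundant genes taking up reads. Each log2 fold change sets hypoxia over normoxia, with its standard error (SE) where a gene is described in full, and a gene is called when its p from edgeR's quasi-likelihood test, adjusted over all tested genes by Benjamini-Hochberg, is under 0.05. The replicate 1 libraries of both groups lay apart from the other 4 on the second principal component of log2 CPM. Same-numbered libraries deviated together from their group means, so results of a fit with the replicate number as a block are given beside those without it where the call changes. The summed level of 8 NK cell markers was 3486 to 3931 CPM in hypoxia libraries and 4006 to 4610 CPM in normoxia libraries, and 1 of the 8, Eomes, was called lower. With the block 4 of the 8 (Eomes, Ncr1, Prf1 and Klrk1) were called lower and 2 (Tbx21 and Nkg7) higher. Of all tested genes, 9.72% were called lower without the block, and 20.0% lower and 19.2% higher with it. The part of these NK marker changes in the differences of the mitotic genes was not tested.

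After 7 days at 1% oxygen, mRNAs of the mitotic machinery were slightly lower or not distinguishable, and none was called higher. Of the 40 genes, 7 fell and 0 rose by edgeR's quasi-likelihood test, which is 17.5% of them lower, where 9.72% of all tested genes were called lower, 11.2% higher and 20.9% in either direction. The genes that fell were Cdc25c, Bub1b, Cenpe, Cdc20, Aurkb, Cdca8 and Ndc80. At an unadjusted p under 0.05, 18 of the 40 were lower and 0 higher, where 16.3% of all tested genes were lower and 17.3% higher. The DESeq2 Wald test called 10 of the 40 lower (11.2% of all tested genes) and limma-trend 8 (9.77%), and neither called any of them higher. The estimated fold change was negative for 37 of the 40 genes, against 50.8% of all tested genes. Their median log2 fold change was -0.19, within a range of -0.55 to 0.08, and the median of all tested genes was -0.01.

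Fitted with the replicate block, 24 of the 40 genes fell and 0 rose, 60.0% of them lower against 20.0% of all tested genes, while their median was -0.18. With scaling by library size alone 3 of the 40 were called lower and their median was -0.10, and all tested genes had a median of 0.08 with 2384 called higher and 998 lower, in place of 1745 and 1516. Leaving out hypoxia replicate 2, or hypoxia replicate 3, or normoxia replicate 2 left 3 called lower. Without normoxia replicate 1 there were 12. The number of all tested genes called lower also changed when single libraries were left out, and its range is given in the closing section. Cdc25c, Bub1b and Cenpe were called in all 14 alternative settings.

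Taken by replicate number, 34 of the 40 genes were lower in the hypoxia library of pair 1, 38 in that of pair 2 and 34 in that of pair 3. The median log2 difference within the pairs was -0.18, -0.21 and -0.16, where all tested genes had medians of -0.01, 0.00 and 0.00. Together the 40 genes made up 6034, 6263 and 5755 CPM in hypoxia replicates 1, 2 and 3, against 6651, 7080 and 6489 CPM in normoxia replicates 1, 2 and 3. On this scale the highest hypoxia sum lay below the lowest normoxia sum. As a share of each library's counts, without TMM, the groups overlapped, at 0.62%, 0.656% and 0.581% in hypoxia and 0.626%, 0.702% and 0.636% in normoxia. Gene by gene, the groups did not overlap for 16 of the 40. Of these, 15 were lower in every hypoxia library (37.5%, against 18.7% of all tested genes), and 1, Cdk1, was higher in every one (all tested genes 19.6%). RNA was measured from whole cultures, so fewer cells in G2 or M and less of these mRNAs per dividing cell cannot be told apart.

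**Figure D1:**
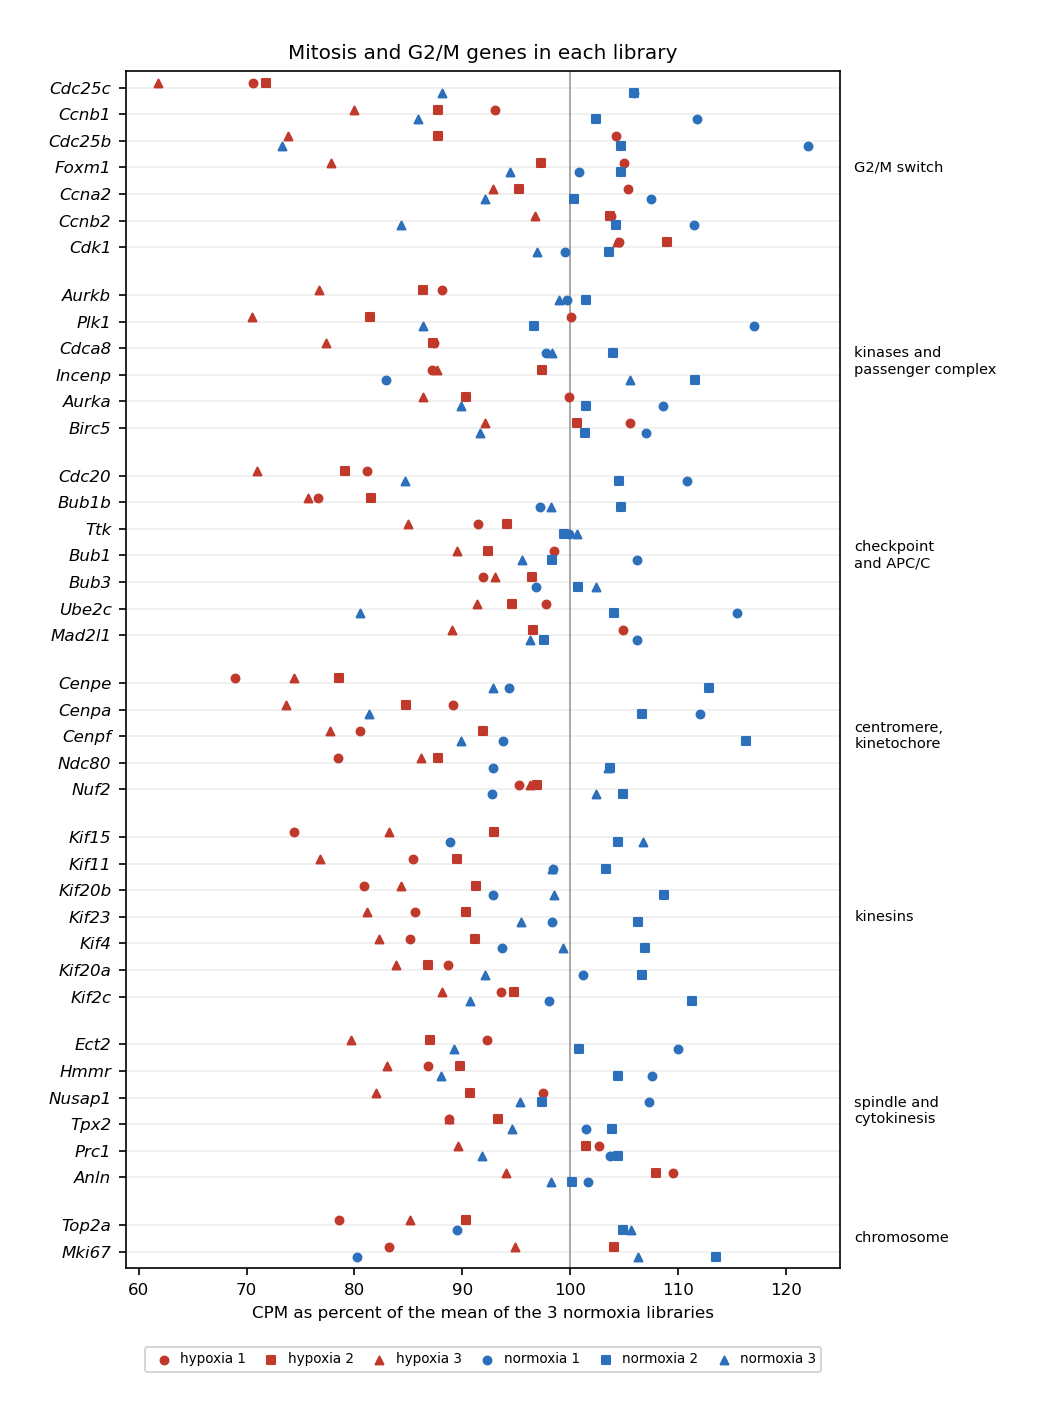
Level of each of the 40 genes in each library, as CPM in percent of that gene's mean over the 3 normoxia libraries (x axis), with genes grouped by role (y axis), hypoxia libraries in red above normoxia libraries in blue, and a marker shape for each replicate number. For 15 genes every red marker lies left of every blue one, and for Cdk1 every red marker lies right of them.

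Other cell types of the spleen could be present in such a culture. Of 8 T cell markers 3 (Cd3d, Cd3g and Cd4, the last at 0.10 to 0.87 CPM) were called higher in hypoxia, where 11.2% of all tested genes were. Another 3 (Cd3e, Trac and Trbc2) had negative log2 fold changes of -0.05, -0.08 and -0.23. With the replicate block 4 of the 8 were called higher and 1, Trbc2, lower, where 19.2% of all tested genes were higher and 20.0% lower. The sum of all 8 was 262 to 312 CPM in hypoxia libraries and 234 to 257 CPM in normoxia libraries. The sum of 5 basophil and mast cell markers was 76.1 to 89.8 CPM in hypoxia and 19.1 to 27.2 CPM in normoxia, nearly all of it Mcpt8, while Fcer1a and Ms4a2, which define these cells, were at 0 to 0.018 CPM. The sum of 5 macrophage and monocyte markers was 49.5 to 81.8 CPM in hypoxia and 12.1 to 24.6 CPM in normoxia, nearly all of it Cd68, with C1qa at 0 and Adgre1 at 0 to 0.019 CPM. Neutrophil markers summed to 0.438 to 1.40 CPM in hypoxia and 0.0905 to 0.209 CPM in normoxia, and the sum of erythroid markers stayed at or under 0.156 CPM in every library. The B cell list summed to 72.9 to 77.8 CPM in hypoxia and 54.8 to 70.2 CPM in normoxia, almost entirely Ighm, with Ms4a1 at 0 to 0.0252 CPM. The part of these cells in the differences of the mitotic genes was not tested.

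Mitotic gene promoters are known for a pair of short elements, the CHR element TTTGAA, bound by the MuvB complex in its DREAM and MYBL2-FOXM1 forms, and the CCAAT box, bound by NF-Y. Windows from 250 bases before to 50 bases after the annotated start were taken from RefSeq on GRCm38.p6 and matched 33 of the 40 genes. Searched on both strands, with overlapping matches counted for both motifs, TTTGAA stood in the window of 25 of the 33 genes (75.8%), against 1581 of 10557 promoters of tested genes and 20.2% of all 27025 promoters. CCAAT stood in 24 of the 33 (72.7%), against 42.8% of tested and 41.1% of all promoters, and both motifs together in 20 of the 33 (60.6%), against 6.17% and 7.97%. In 23 of the 33 (69.7%) a TTTGAA lay within 50 bases of the start, against 3.98% of tested and 5.72% of all promoters. In 9 of the 33 (27.3%) it lay in the 100 bases before the start, against 4.22% of tested and 6.76% of all promoters, so for most of the 25 it stood after the start or further upstream. Such a match describes the letters in these windows and is no evidence of a bound site. Promoters of Ccna2, Cdc25c, Foxm1, Aurkb, Incenp, Kif20a and Tpx2 were not analysed here.

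The 120 bases before the start, to which the stretches are limited, are shown for 6 genes, to set promoters of genes that fell beside promoters of genes that did not. Cdc20 (chr4:118437344-118437463, minus strand) and Bub1b (chr2:118598091-118598210, plus strand) were called lower. Kif11 (chr19:37376262-37376381, plus strand) and Top2a (chr11:99024190-99024309, minus strand) were not called in the main fit, which has no block, and were called lower with the replicate block. Counting the block, Kif11 was called in 6 of the 14 alternative settings and Top2a in 3. Cdk1 (chr10:69352913-69353032, minus strand) and Ube2c (chr2:164769809-164769928, plus strand) were called in neither fit. Each is written 5′ to 3′ along the gene's strand on GRCm38.p6, and capitals mark TTTGAA and CCAAT or their reverse complements TTCAAA and ATTGG.
Cdc20: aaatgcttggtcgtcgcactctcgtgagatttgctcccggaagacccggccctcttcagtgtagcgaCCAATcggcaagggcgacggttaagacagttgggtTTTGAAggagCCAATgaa
Bub1b: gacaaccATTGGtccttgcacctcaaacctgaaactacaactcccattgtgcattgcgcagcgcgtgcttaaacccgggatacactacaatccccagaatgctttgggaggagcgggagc
Kif11: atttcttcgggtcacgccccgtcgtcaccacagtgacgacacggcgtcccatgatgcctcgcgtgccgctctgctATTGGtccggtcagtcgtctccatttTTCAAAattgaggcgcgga
Top2a: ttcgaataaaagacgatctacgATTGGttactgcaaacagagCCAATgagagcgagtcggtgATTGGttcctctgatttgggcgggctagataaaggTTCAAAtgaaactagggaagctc
Cdk1: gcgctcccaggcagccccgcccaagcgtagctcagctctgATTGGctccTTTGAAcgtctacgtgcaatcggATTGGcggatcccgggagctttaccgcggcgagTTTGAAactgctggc
Ube2c: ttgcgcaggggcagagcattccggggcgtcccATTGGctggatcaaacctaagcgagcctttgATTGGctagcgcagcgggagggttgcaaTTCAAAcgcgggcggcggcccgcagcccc

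In 5 of these stretches a TTTGAA lies close to the start, beginning 15 bases upstream in Cdk1, 18 in Cdc20, 19 in Kif11, 23 in Top2a and 29 in Ube2c. In Bub1b the TTTGAA lies downstream of the start and is not part of the stretch shown. The promoters of Cdk1 and Ube2c, which were not called, hold both elements like that of Cdc20, which was, in another order and orientation. Across the 33 genes, those with TTTGAA had a median log2 fold change of -0.21 (4 of 25 called lower) and those without it -0.12 (1 of 8). With CCAAT the median was -0.21 (4 of 24) and without it -0.12 (1 of 9). Of all tested genes 9.72% were called lower. With the replicate block 16 of the 25 genes with TTTGAA and 4 of the 8 without it were called lower. For CCAAT these were 16 of 24 and 4 of 9, where 20.0% of all tested genes were called lower. Whether genes with and without a motif differ was not tested.

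Of the 7 genes of the G2/M switch, the cyclins, CDK1, its phosphatases and FOXM1, 1 fell and 0 rose, with a median log2 fold change of -0.10 (3 fell with the replicate block). Scaling by library size gave 1 that fell and a median of -0.02. Under that scaling, here and for the other roles below, the median of all tested genes was 0.08. Cdc25c, a phosphatase that removes inhibitory phosphates from CDK1, stood at 19.8, 20.1 and 17.3 CPM in hypoxia libraries and at 29.7, 29.7 and 24.7 CPM in normoxia libraries. Every hypoxia library lay below every normoxia library. Its log2 fold change of -0.55 (edgeR SE 0.10, adjusted p = 0.00376) was the lowest of the 40 genes.

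Ccnb1, which encodes cyclin B1, the main mitotic partner of CDK1, had 136, 129 and 117 CPM in hypoxia libraries and 164, 150.1 and 126 CPM in normoxia libraries. The third normoxia library lay within the range of the hypoxia libraries. The edgeR adjusted p was 0.207 for a log2 fold change of -0.20, and 0.00934 with the replicate block. Cdk1 itself, the kinase that starts mitosis, had 175, 183 and 175 CPM in hypoxia libraries and 167, 174 and 163 CPM in normoxia libraries. All hypoxia libraries were above all normoxia libraries by a small margin, and the gene was called in neither fit (log2 fold change 0.08 with SE 0.07, edgeR adjusted p 0.445 without the block and 0.185 with it). Ccna2, the gene of cyclin A2, which acts in S phase and G2, had 312, 282 and 274 CPM in hypoxia libraries and 318, 297 and 272 CPM in normoxia libraries, so the groups overlapped almost fully.

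Of the other genes of the switch, Ccnb2 (cyclin B2) averaged 141 ± 5.64 CPM in hypoxia libraries and 139 ± 19.5 CPM in normoxia libraries (SD, n = 3 each). Foxm1, the gene of a transcription factor that activates G2/M genes, averaged 98.7 ± 14.8 CPM in hypoxia libraries and 106 ± 5.53 CPM in normoxia libraries. Neither was called in either fit. Cdc25b, a phosphatase gene related to Cdc25c, averaged 78.3 ± 13.4 CPM in hypoxia libraries and 88.4 ± 21.8 CPM in normoxia libraries. In both groups replicate 1 was its highest library and replicate 3 its lowest, and its edgeR adjusted p was 0.54 without the block and 0.0472 with it.

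Among the mitotic kinases and the chromosomal passenger complex, which corrects faulty attachments and guides division of the cell, 2 of 6 genes fell and 0 rose (median -0.20, and 3 fell with the replicate block). With scaling by library size 0 of the 6 were called in either direction, at a median of -0.11. Aurkb, the kinase of that complex, had 109.6, 107 and 95.4 CPM in hypoxia libraries and 124, 126 and 123 CPM in normoxia libraries. Cdca8, which encodes its subunit borealin, had 112, 112 and 99.02 CPM in hypoxia libraries and 125, 133 and 126 CPM in normoxia libraries. For both genes the groups were apart, and hypoxia replicate 3 was the lowest library of all. The log2 fold changes were -0.26 for Aurkb (edgeR SE 0.07, adjusted p = 0.0371) and -0.25 for Cdca8 (edgeR SE 0.08, adjusted p = 0.0416). Both calls were lost with scaling by library size, and when any one of replicates 2 and 3 of either group was left out. That of Cdca8 was also lost without hypoxia replicate 1 and with a stricter filter (highest adjusted p over all alternatives 0.16 for Aurkb and 0.185 for Cdca8).

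The other members of the complex were not called. Incenp, its scaffold, had 169, 189 and 170.0 CPM in hypoxia libraries and 161, 216 and 205 CPM in normoxia libraries, where normoxia replicate 1 was the lowest of all 6. Without that library Incenp passed (edgeR adjusted p = 0.0432). Birc5, which encodes survivin, averaged 142 ± 9.68 CPM in hypoxia libraries and 142 ± 11.1 CPM in normoxia libraries (SD, n = 3 each). Plk1, a kinase that acts from mitotic entry to cell division, had 128, 104 and 90.2 CPM in hypoxia libraries and 149.8, 124 and 110.5 CPM in normoxia libraries. The ranges overlapped, but each hypoxia library was below the normoxia library of its number (edgeR log2 fold change -0.25 with SE 0.14, adjusted p = 0.246, and 0.00122 with the block). Aurka, the kinase of the spindle poles, averaged 84.4 ± 6.38 CPM in hypoxia libraries and 91.6 ± 8.66 CPM in normoxia libraries and was called in neither fit.

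**Figure D2:**
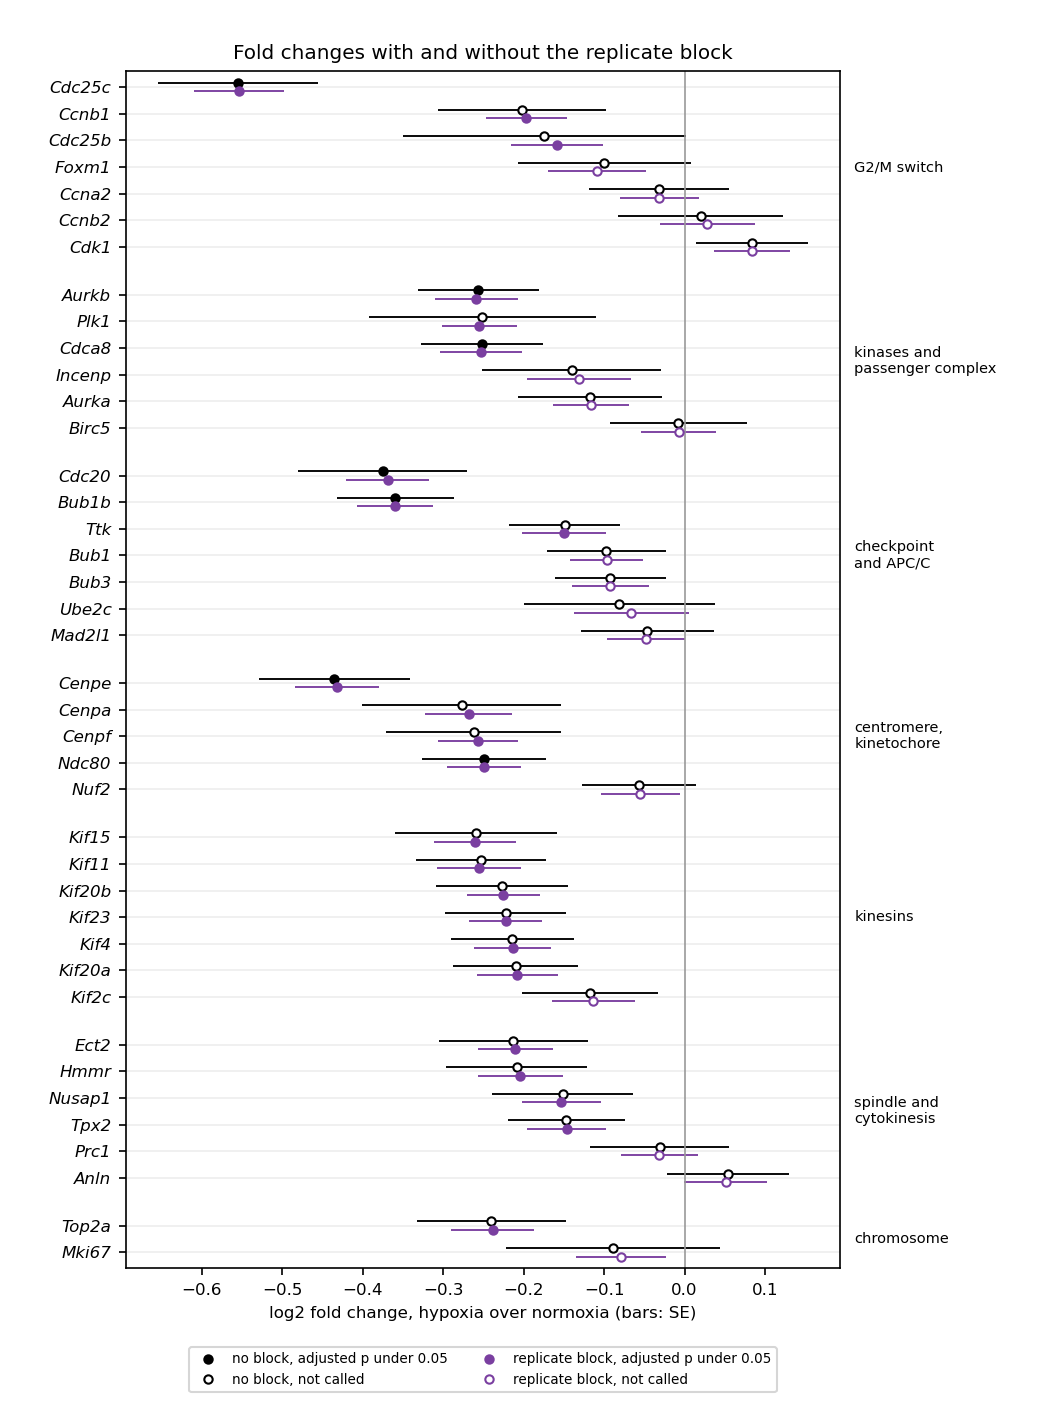
Log2 fold change of hypoxia over normoxia (x axis, bars are SE) for each of the 40 genes (y axis), from the fit without a block (black) and with the replicate block (purple), with filled points for adjusted p under 0.05. The fold changes hardly move between the fits, while 7 points are filled without the block and 24 with it.

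Of 7 genes of the spindle checkpoint and of APC/C activation, 2 fell and 0 rose (median -0.10, and 3 fell with the replicate block). Scaling by library size left 1 that fell, Bub1b, and a median of -0.01. Bub1b, which encodes the checkpoint protein BUBR1, had 150.2, 159.9 and 148 CPM in hypoxia libraries and 190.5, 205 and 192 CPM in normoxia libraries. The gap between the groups was wider than the range within either. Its log2 fold change was -0.36 (edgeR SE 0.07, adjusted p = 0.00704). Cdc20, which activates APC/C and is the target that the checkpoint holds back, had 91.1, 88.8 and 79.6 CPM in hypoxia libraries and 124, 117 and 94.97 CPM in normoxia libraries. The groups were apart, though normoxia replicate 3 came close to hypoxia replicate 1 (edgeR log2 fold change -0.38 with SE 0.10, adjusted p = 0.0307). The call of Cdc20 was lost with scaling by library size and without hypoxia replicate 2, hypoxia replicate 3, normoxia replicate 1 or normoxia replicate 2 (highest adjusted p 0.103).

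Ttk, the gene of the checkpoint kinase MPS1, had 43.3, 44.5 and 40.2 CPM in hypoxia libraries and 47.3, 47.1 and 47.6 CPM in normoxia libraries, with a log2 fold change of -0.15 (SE 0.07). The groups did not overlap, and the edgeR adjusted p was 0.164 without the block and 0.0392 with it. Ube2c, the ubiquitin-conjugating enzyme that works with APC/C, had 178, 173 and 167 CPM in hypoxia libraries and 211, 190.0 and 147 CPM in normoxia libraries. Its normoxia libraries spread to both sides of the hypoxia libraries. The checkpoint genes Bub1, Bub3 and Mad2l1 were called in neither fit, with log2 fold changes of -0.10, -0.09 and -0.05, although every hypoxia library was below every normoxia library for Bub3.

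The genes of the centromere and outer kinetochore, the structure that binds microtubules, included 2 of 5 that fell and 0 that rose (median -0.26, and 4 fell with the replicate block). Scaling by library size left 1 that fell, Cenpe, at a median of -0.18. Cenpe, which encodes the kinesin that carries chromosomes to the spindle equator, had 101, 115 and 109 CPM in hypoxia libraries and 138, 165 and 136 CPM in normoxia libraries. Every hypoxia library was below every normoxia library (edgeR log2 fold change -0.44 with SE 0.09, adjusted p = 0.0095). Ndc80, the microtubule-binding subunit of the complex that bears its name, had 50.6, 56.6 and 55.6 CPM in hypoxia libraries and 59.9, 66.9 and 66.8 CPM in normoxia libraries. It fell by 0.25 on the log2 scale (edgeR SE 0.08, adjusted p = 0.0452). This call was lost with scaling by library size, with a stricter filter, and when any single library other than normoxia replicate 1 was left out (highest adjusted p 0.198).

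Nuf2, the partner of NDC80 in the same complex, differed less, with a mean of 88.2 ± 0.763 CPM in hypoxia libraries and 91.7 ± 5.87 CPM in normoxia libraries (SD, n = 3 each, log2 fold change -0.06). Cenpa, the histone variant that marks the centromere, had 173, 164 and 143 CPM in hypoxia libraries and 217, 207 and 158 CPM in normoxia libraries. Cenpf, a large protein of the outer kinetochore, had 119, 135 and 114 CPM in hypoxia libraries and 138, 171 and 132 CPM in normoxia libraries. For both, a single normoxia library (replicate 3) fell into the hypoxia range. Their log2 fold changes were -0.28 and -0.26, with edgeR adjusted p of 0.148 and 0.123 without the block and 0.00233 and 0.00175 with it.

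**Figure D3:**
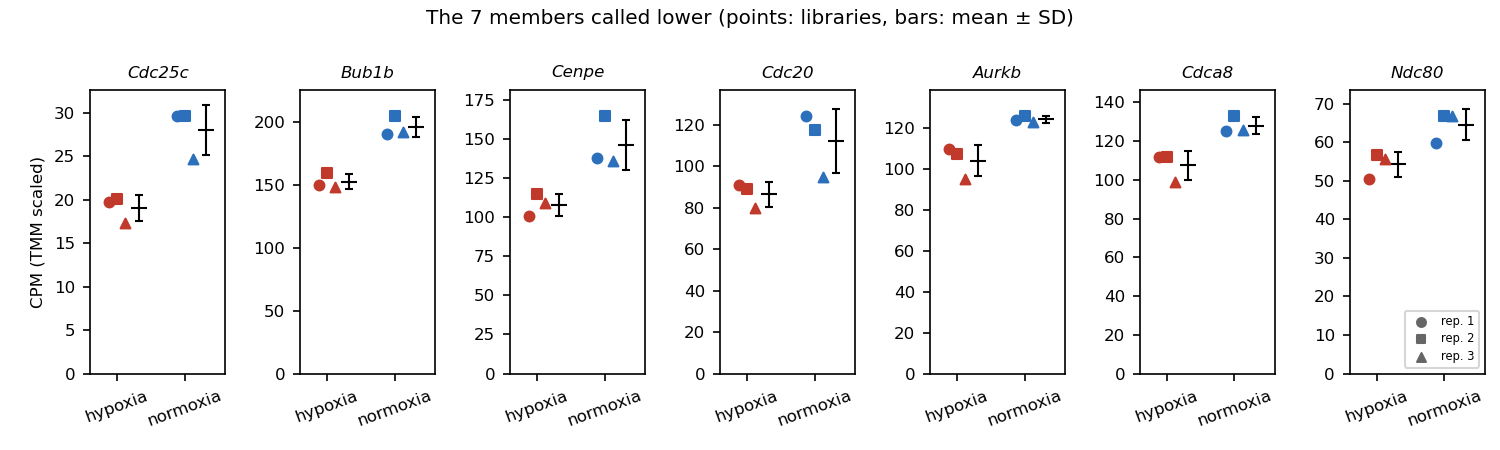
CPM (y axis, from 0) in hypoxia libraries (red, left) and normoxia libraries (blue, right) for the 7 genes called lower, with a marker shape for each replicate number and mean ± SD as bars. The groups do not overlap in any of the 7 panels, and Cdc25c has the largest fold change, with 19.1 CPM in hypoxia against 28.0 CPM in normoxia on average.

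None of the 7 mitotic kinesins passed the test with edgeR. Their log2 fold changes ran from -0.26 to -0.12 with a median of -0.22 (-0.14 with scaling by library size). As lower, 6 had an unadjusted p under 0.05 (16.3% of all tested genes did), and for 5 (Kif4, Kif11, Kif20a, Kif20b and Kif23) the groups did not overlap (18.7% of all tested genes). DESeq2 called 3 of them lower, limma-trend 1 and edgeR with the replicate block 6. Kif11, the motor that pushes spindle poles apart, had 234, 246 and 211 CPM in hypoxia libraries and 269.8, 284 and 269.6 CPM in normoxia libraries. At a log2 fold change of -0.25 (SE 0.08) its edgeR adjusted p was 0.051, just above the threshold, and 0.00252 with the block.

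Kif23, a motor of the central spindle needed for the final separation of the cells, had 109, 116 and 104 CPM in hypoxia libraries and 126, 136 and 122 CPM in normoxia libraries. Kif4, a chromosome-bound motor, had 81.2, 87.0 and 78.5 CPM in hypoxia libraries and 89.3, 102 and 94.7 CPM in normoxia libraries. Both were lower in all hypoxia libraries and passed with the block (edgeR adjusted p = 0.00265 for Kif23 and 0.00445 for Kif4, against 0.0648 and 0.0768 without it). Kif15, Kif20a and Kif20b had log2 fold changes of -0.26, -0.21 and -0.23 and were likewise called with the block. Kif2c, a kinesin that depolymerizes microtubules, was the exception, at -0.12 (edgeR adjusted p = 0.376, and 0.106 with the block).

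Of 6 genes of spindle assembly, the midzone and cytokinesis, edgeR called 0 in either direction (median -0.15, or -0.07 with scaling by library size, 2 with an unadjusted p under 0.05 as lower and 0 as higher, 0 by DESeq2 and by limma-trend, and 4 lower with the replicate block). Hmmr, a microtubule-binding protein of the spindle poles, had 102, 105 and 97.3 CPM in hypoxia libraries and 126, 122 and 103 CPM in normoxia libraries. Ect2, the exchange factor that activates RhoA for the cleavage furrow, had 87.6, 82.6 and 75.7 CPM in hypoxia libraries and 104, 95.7 and 84.7 CPM in normoxia libraries. In both genes normoxia replicate 3 overlapped with the hypoxia libraries. The log2 fold change was -0.21 for each (SE 0.09), and the edgeR adjusted p was 0.126 and 0.137 without the block and 0.0102 and 0.00397 with it.

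Tpx2, an activator of Aurora A, had 171, 179.6 and 171 CPM in hypoxia libraries and 195, 199.9 and 182 CPM in normoxia libraries. The groups did not overlap, and of the settings run it was called with the block only (edgeR adjusted p = 0.0334, against 0.189 without it). Nusap1, a microtubule-bundling protein gene, was also called with the block only (log2 fold change -0.15). Prc1, which bundles the microtubules of the midzone, had 202, 199.8 and 176 CPM in hypoxia libraries and 204, 206 and 181 CPM in normoxia libraries, and Anln, the gene of anillin, averaged 65.8 ± 5.41 CPM in hypoxia libraries and 63.4 ± 1.098 CPM in normoxia libraries (SD, n = 3 each). Neither was called in either fit.

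Mki67, the gene of the proliferation marker Ki-67, had 540.0, 676 and 616 CPM in hypoxia libraries and 521, 737 and 690.1 CPM in normoxia libraries. The replicate 1 libraries of both groups were the lowest of their group, and the groups overlapped (edgeR log2 fold change -0.09 with SE 0.13, adjusted p = 0.694, and 0.294 with the block). Top2a, the topoisomerase that untangles sister chromosomes, had 684, 786 and 741 CPM in hypoxia libraries and 779, 913 and 919 CPM in normoxia libraries. Normoxia replicate 1 lay within the hypoxia range, and each hypoxia library was below the normoxia library of its number. It had a log2 fold change of -0.24 (SE 0.09), with an edgeR adjusted p of 0.098 without the block and 0.00349 with it.

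The members also differed between libraries of the same group. Within hypoxia, replicate 3 was the lowest library for 31 of the 40 genes and the highest for 0, while replicates 1 and 2 were each the highest for 20. Within normoxia, replicate 3 was the lowest for 28 genes, replicate 2 the highest for 20 and replicate 1 the highest for 16 and the lowest for 11. Genes for which replicate 1 exceeded the mean of replicates 2 and 3 in hypoxia tended to do so in normoxia too (Spearman's rho across the 40 genes 0.82, a description over genes that share libraries). Cdc25b and Plk1 were the genes with the largest such excess in both groups, 0.37 and 0.40 on the log2 scale in hypoxia and 0.45 and 0.36 in normoxia. Mki67 had the lowest value in both, at -0.26 in hypoxia and -0.45 in normoxia.

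The replicate 1 pattern went with transcript length, taken as the longest coding transcript in GENCODE M21. Across the 40 genes, rho between length and the replicate 1 deviation was -0.43 in hypoxia and -0.49 in normoxia, where all 12536 tested genes with a coding transcript gave 0.04 and -0.11. For the 10 longest (4652 to 11130 bases) replicate 1 was below the mean of the others for 7 genes in hypoxia and 8 in normoxia, and for the 10 shortest (1466 to 2201 bases) for 1 and 3. The fold change between oxygen levels did not follow length in the same way (rho 0.02 across the 40 genes, 0.11 across all). Its median was -0.23 for the 10 longest and -0.25 for the 10 shortest, though 1 of the 10 longest and 5 of the 10 shortest were called lower. The 40 genes share libraries and these values carry no test.

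**Figure D4:**
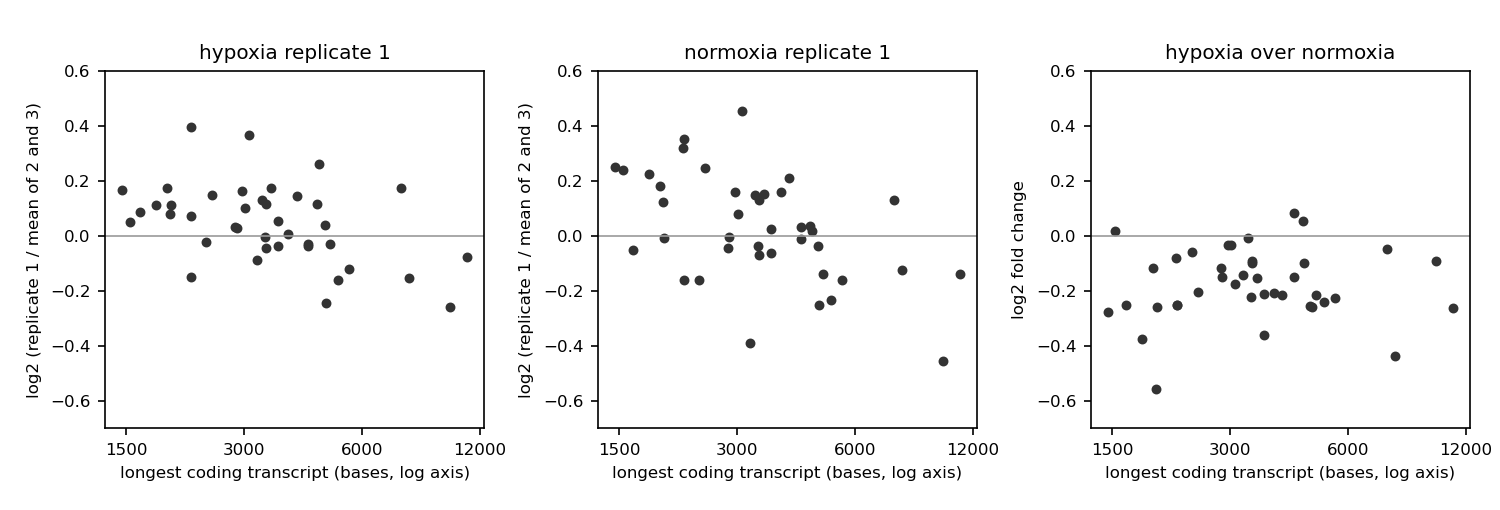
Length of the longest coding transcript (x axis, bases, log axis) of the 40 genes against the log2 ratio of replicate 1 to the mean of replicates 2 and 3 in hypoxia (left) and in normoxia (middle), and against the log2 fold change of hypoxia over normoxia (right). The points slope down in the left and middle panels (rho -0.43 and -0.49) and lie flat and mostly below 0 in the right panel (rho 0.02).

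Other cell-cycle genes were set beside the members in 10 lists of 167 genes, of which 166 were tested. Of the 166, 20 fell and 6 rose, where 9.72% of all tested genes fell and 11.2% rose, and the median log2 fold change was -0.07. The replicate block gave 55 that fell and 15 that rose (33.1% and 9.04%, against 20.0% and 19.2% of all tested genes). With scaling by library size 8 fell and 7 rose with a median of 0.01. Under that scaling 998 of all tested genes fell and 2384 rose, with a median of 0.08. For the lists that follow, the block and this scaling have these same values over all tested genes. The number that fell was 9, 5 and 8 when hypoxia replicate 1, 2 or 3 was left out, and 8 and 11 when normoxia replicate 2 or 3 was. In the fit that omitted normoxia replicate 3, 11 rose. Counts over all tested genes changed in such fits too, with ranges given in the closing section.

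Of 20 other spindle, centrosome and cytokinesis genes 5 fell and 0 rose (median -0.17, 13 and 0 in the fit with the block, 2 and 0 under library-size scaling). Cit, the gene of citron kinase, which acts in cytokinesis, had 44.6, 47.6 and 40.3 CPM in hypoxia libraries and 59.8, 71.0 and 63.5 CPM in normoxia libraries, with no overlap (edgeR log2 fold change -0.55 with SE 0.09, adjusted p = 0.00226). Depdc1a had a log2 fold change of -0.38 (edgeR adjusted p = 0.0143), a call lost when hypoxia replicate 2, hypoxia replicate 3 or normoxia replicate 2 was left out.

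Of 32 other kinetochore and centromere genes 5 fell and 0 rose (median -0.13, 14 and 2 with the block, 2 and 1 under library-size scaling). Knl1, the scaffold on which the checkpoint proteins gather, fell by 0.38 on the log2 scale (edgeR SE 0.07, adjusted p = 0.00543). Of 12 genes of cohesin, the ring that holds sister chromosomes together, and its regulators 1 fell and 0 rose (8 and 0 with the block), and the gene that fell was Stag1, a cohesin subunit (edgeR log2 fold change -0.41 with SE 0.06, adjusted p = 0.00195). Cit, Knl1 and Stag1 were called in all 14 alternative settings.

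Of 8 condensin genes 1 fell and 0 rose (5 and 0 with the block), namely Ncapg, a subunit of condensin I (log2 fold change -0.26). Of 16 APC/C genes 2 fell and 0 rose (5 and 0 with the block), Ube2s, a ubiquitin-conjugating enzyme of APC/C (-0.28), and the subunit gene Anapc15 (-0.22). With scaling by library size, without hypoxia replicate 1, without hypoxia replicate 2 or without hypoxia replicate 3, the calls of Ncapg, Ube2s and Anapc15 were lost. Those of Ncapg and Anapc15 were also lost without normoxia replicates 2 or 3, and that of Anapc15 with no filter. Of 16 other G2/M regulators 4 fell and 0 rose (5 and 1 with the block), with a median of -0.07. With scaling by library size 2 fell and 0 rose, and the median was 0.02, where that of all tested genes was 0.08. Cks1b and Cks2, which encode small proteins that bind CDKs, had log2 fold changes of -0.29 and -0.30 (edgeR adjusted p = 0.0194 and 0.015). The call of Cks1b was lost without hypoxia replicates 2 or 3, and that of Cks2 without hypoxia replicates 1 or 2 or normoxia replicate 2.

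Of 30 DNA replication and S phase genes 1 fell and 1 rose, with a median of 0.02 (3 and 4 with the replicate block, and 0 and 1 with scaling by library size, where the median was 0.11). E2f1, a transcription factor of S phase entry, had 69.4, 64.6 and 65.6 CPM in hypoxia libraries and 45.0, 46.6 and 54.8 CPM in normoxia libraries, and rose by 0.45 on the log2 scale (edgeR SE 0.09, adjusted p = 0.00554). Tyms, the gene of thymidylate synthase, had a log2 fold change of -0.31 (edgeR adjusted p = 0.0414), lost in 6 of the 14 alternatives (up to 0.201). Those were scaling by library size and leaving out any single library other than normoxia replicate 2. Whether the mitotic list and the S phase list differ was not tested.

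Of 8 D- and E-type cyclins and their kinases 2 rose and 0 fell. Ccne2, cyclin E2, which drives entry into S phase with CDK2, had 66.5, 56.5 and 63.5 CPM in hypoxia libraries and 28.8, 26.4 and 39.5 CPM in normoxia libraries (edgeR log2 fold change 0.98 with SE 0.14, adjusted p = 0.00109). Ccnd1, cyclin D1, had 3.00, 3.58 and 4.30 CPM in hypoxia libraries and 1.03, 1.41 and 1.70 CPM in normoxia libraries (edgeR log2 fold change 1.39 with SE 0.22, adjusted p = 0.00184). Both were higher in all hypoxia libraries.

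Of 12 CDK inhibitors and antiproliferative genes 3 rose and 1 fell (4 and 2 with the block). Trp53inp1, a gene induced by p53, had 107, 110.1 and 93.9 CPM in hypoxia libraries and 56.0, 49.2 and 38.3 CPM in normoxia libraries (edgeR log2 fold change 1.12 with SE 0.13, adjusted p = 0.000336). Cdkn2b, which encodes p15, an inhibitor of CDK4 and CDK6, had 5.64, 4.95 and 6.12 CPM in hypoxia libraries and 13.6, 12.9 and 12.9 CPM in normoxia libraries (edgeR log2 fold change -1.24 with SE 0.10, adjusted p = 5.96e-05). The groups did not overlap for either gene. Cdkn1c and Ccng1 were the others that rose. Cdkn1c had only 0.228, 0.225 and 0.285 CPM in hypoxia libraries and 0.076, 0.072 and 0.11 CPM in normoxia libraries. A single count was worth about 0.018 CPM, so the call of Cdkn1c rests on few counts. The list of MuvB, MYBL2, the E2F repressors and the pocket proteins had 12 tested genes, some of which act at mitotic promoters. Of these 12, edgeR called 0 in either direction. At an unadjusted p under 0.05, 2 were higher and 0 lower, and DESeq2 and limma-trend called 0. With the replicate block 2 were called higher, Mybl2 and E2f7.

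**Figure D5:**
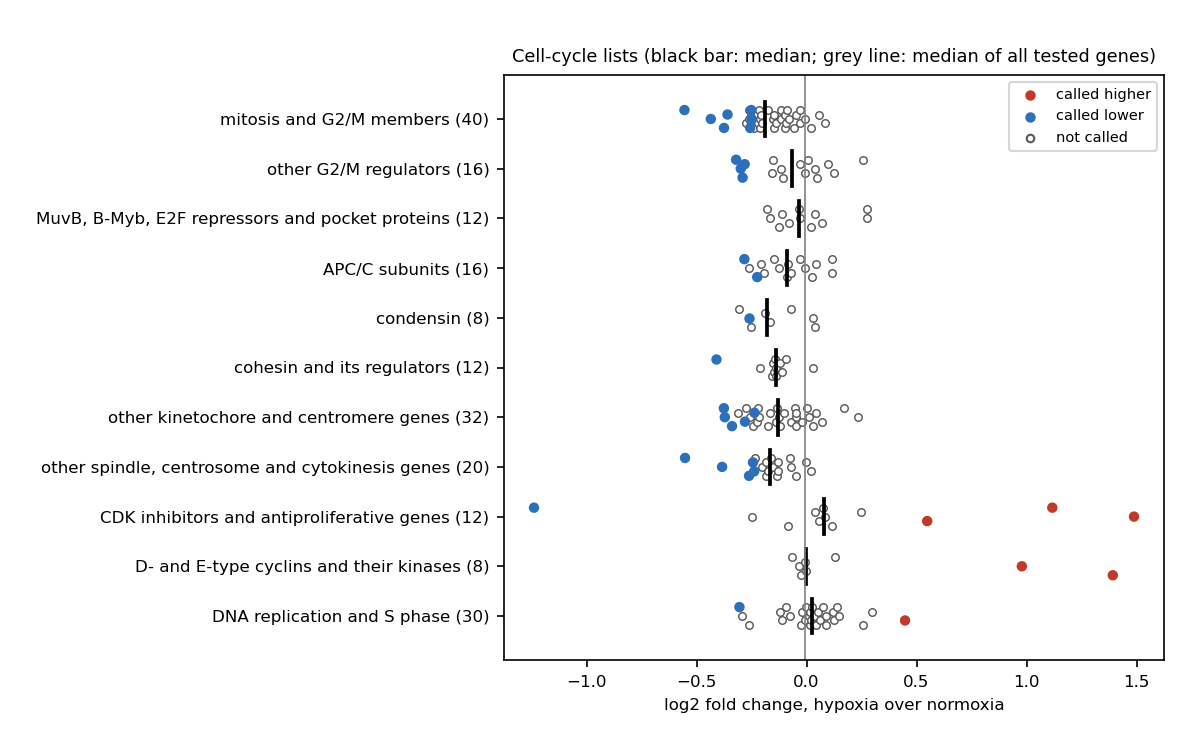
Log2 fold change of hypoxia over normoxia (x axis) for each tested gene of the mitosis and G2/M genes and of the 10 other cell-cycle lists (y axis, number of genes in parentheses), with filled points for called genes, a black bar for each list's median and a grey line for the median of all tested genes. The bar of the 40 members lies at -0.19 and that of the DNA replication and S phase genes at 0.02.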

How the data were processed

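RNA was made into strand-specific mRNA libraries, per the labels' protocols. The submitters' processing notes list Trim Galore 0.6.4, kallisto 0.4.6, edgeR 3.17 and the build GRCm39, and which annotation release was used is not given in the sources used here. What the authors deposited were estimated counts per gene, not normalized, and log2 CPM. The deposited log2 CPM equalled values recomputed from the counts with a prior count of 2 (largest difference 0), so only counts were analysed. One count was worth about 0.018 CPM.

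Counts were rounded, filtered with filterByExpr (minimum count 10, minimum total 15), scaled with TMM and tested with edgeR 4.0.16 without covariates. The SE is the size of the log2 fold change divided by the root of the F statistic. Symbols came from GENCODE M21, which paired 52029 IDs with a name. DESeq2 1.42.0, limma 3.58.1, other scalings, filters (minimum count 50 or none), the replicate block and left-out libraries were alternatives. Replicate numbers come from the labels. Deviations from group means correlated at 0.47, 0.33 and 0.30 between same-numbered libraries, all above the 0.1 set as the limit for treating equal numbers as pairs. Between differently numbered libraries they ran from -0.35 to 0.12. The highest of these, hypoxia replicate 2 with normoxia replicate 3, was also above that limit. The labels do not state that equal numbers are pairs. Libraries of a group differed by more than sampling noise (chi-square per gene 12.4 or more).

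The members and lists were chosen with earlier results of these data known. Named with values per library are, per role, the 3 smallest p and the highest CPM, and, per other list, up to 2 called genes. Some listed genes are not reported here by name.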

Additional observations from a re-analysis of the deposited data

How the results depend on the processing

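No member was called higher in any of the 14 alternatives, and the members' median log2 fold change was negative in each, from -0.21 to -0.10. Over the 40 members and 14 alternatives, 482 of 560 values kept direction and call, 36 gained a call, 24 lost it and 18 changed sign, all 18 in genes called in neither setting. With the replicate block 24 members were lower, other cell-cycle genes gave 15 higher and 55 lower, and all tested genes 2988 and 3120. The block turned no member's direction. Scaling by library size gave 3 members lower with a median of -0.1016, 8 other cell-cycle genes lower and 998 of all tested genes lower. Under it the log2 fold change turned positive for Ccna2 (0.0523), Birc5 (0.0766), Mad2l1 (0.0384), Ube2c (0.0044), Nuf2 (0.0242) and Prc1 (0.0531). The median of all tested genes was then 0.0773, above each of these values. The sign also turned positive for Birc5 (0.0071) with the stricter filter and Ube2c (0.0095) without both replicate 1 libraries.

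Leaving out single libraries gave 3 to 12 members lower, 5 to 27 other cell-cycle genes lower and 5 to 11 higher, and 804 to 1636 of all tested genes lower and 1146 to 1980 higher. The log2 fold changes that crossed 0 then were those of Ccna2 (-0.0897 to 0.0221), Ccnb2 (-0.0912 to 0.1034), Foxm1 (-0.1932 to 0.0192), Birc5 (-0.0693 to 0.0477), Mad2l1 (-0.1082 to 0.0138), Ube2c (-0.2172 to 0.0331), Prc1 (-0.0908 to 0.0321) and Mki67 (-0.2264 to 0.0095). The cause of these changes was not tested. The share of member promoters with TTTAAA in place of TTTGAA was 27.3%, against 10.9% of promoters of tested genes and 14.9% of all promoters. For TTTGAA within the 100 bases before the start it was 27.3%, against 4.22% and 6.76%. Depth gives little counting error at the members' levels, and 3 libraries a group limit the precision.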
